A study of Mus musculus with 8 samples.

Results

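Notch receptors, mediators of Notch signalling and Notch target genes were followed in pro-B cell lines from Ebf1-deficient mice, over 4 groups. The 10 genes were chosen by name as a pathway, and every probe outside the control spots whose transcript accession maps to one of them was kept. They were the receptors Notch1, Notch2, Notch3 and Notch4, the mediators Rbpj, Numb and Dtx1, and the target genes Nrarp, Hes1 and Hes5, out of 20121 genes named on the array. Together they had 13 probes, with 2 probes each for Notch1, Notch2 and Rbpj and 1 for each of the others. All cells came from fetal liver progenitors of Ebf1-deficient mouse embryos, which lack a transcription factor that B cell development requires, and were grown with SCF, Flt3L and IL7. The pro-B(+) line, kept on OP9 stroma, has T-lineage potential, and the pro-B(-) line, kept on the thymic stromal line TD7, has none. In the other two groups the pro-B(-) line bore a lentiviral vector with a rat CD2 marker, either empty (pro-B(-)/Mock) or with mouse Lmo2 (pro-B(-)/LMO2). Each parental group is 1 established line, so that differences between the lines cannot be told apart from differences between stromal cultures or between line isolates. The labels give neither the stromal cells nor a Notch ligand for the arrayed cultures of the transductants. Their titles name only a pro-B cell line with empty vector or Lmo2. That this was the pro-B(-) line, and which vector it bore, was inferred from the study's description of its transductions.

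Notch receptors are single-pass membrane proteins that a ligand on a neighbouring cell triggers to be cleaved, first by ADAM proteases and then by gamma-secretase. The released intracellular part enters the nucleus, binds the DNA-binding protein RBPJ and, with Mastermind-like coactivators, turns on genes such as Hes1, Hes5, Nrarp and Dtx1. In blood progenitors that reach the thymus, NOTCH1 signalling directs the choice of the T-cell over the B-cell lineage.

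Total RNA was hybridised in 1 colour to 8 arrays, 2 per group. Both parental lines shared 1 slide and both transductants another, scanned on a different day, so that slide and group cannot be told apart in any comparison between the slides. Per array, 56.5% to 61.2% of probes had a signal well above background, and no spot was saturated. Replicate arrays correlated at r = 0.999 over 20376 probes. The sample titles do not say whether replicates were separate cultures, so p-values measure only the spread between these arrays, which may be technical. As a check of the labels, Lmo2 was read as 2.09 and 2.10 on the pro-B(+) arrays, 0.63 and 0.63 on the pro-B(-) arrays, 0.35 and 0.35 on the pro-B(-)/Mock arrays and 0.99 and 0.93 on the pro-B(-)/LMO2 arrays, as log2 signal relative to the 75th percentile of the array. The library labelled with the Lmo2 vector thus lay above its empty-vector control by 0.61 (SE 0.035, limma adjusted p = 3.82e-05). Whether the Lmo2 probe reads the insert of the vector was not examined here, which limits this check. The Ebf1 probe was well above background on all 8 arrays, between 1.12 and 1.53, and its position relative to the disrupted part of the gene was not examined here, so it checks nothing. Fewer cells of a type and less RNA per cell cannot be told apart in such bulk samples.

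The regions upstream of 3 target genes are shown because these genes, all known targets of Notch and RBPJ, moved differently from each other between the groups. RBPJ binds a short element whose core is TGGGAA on either strand, and matches to that core are in capitals. The sequences are the 250 bases before the RefSeq start of each gene on the strand of the gene, in assembly GRCm38.p6. Promoter entries were matched for 9 of the 10 genes, all but Hes1.
Hes5, chr4:154960673-154960922, plus strand: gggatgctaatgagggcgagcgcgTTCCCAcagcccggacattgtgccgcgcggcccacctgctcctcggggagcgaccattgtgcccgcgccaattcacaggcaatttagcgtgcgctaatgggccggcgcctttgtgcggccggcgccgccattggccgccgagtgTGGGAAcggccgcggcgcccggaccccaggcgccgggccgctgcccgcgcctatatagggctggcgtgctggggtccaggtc
Dtx1, chr5:120711670-120711919, minus strand: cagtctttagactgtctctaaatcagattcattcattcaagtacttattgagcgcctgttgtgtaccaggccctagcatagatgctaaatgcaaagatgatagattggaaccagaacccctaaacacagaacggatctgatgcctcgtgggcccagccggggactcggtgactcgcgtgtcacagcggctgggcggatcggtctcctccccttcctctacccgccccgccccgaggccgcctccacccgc
Nrarp, chr2:25180508-25180757, plus strand: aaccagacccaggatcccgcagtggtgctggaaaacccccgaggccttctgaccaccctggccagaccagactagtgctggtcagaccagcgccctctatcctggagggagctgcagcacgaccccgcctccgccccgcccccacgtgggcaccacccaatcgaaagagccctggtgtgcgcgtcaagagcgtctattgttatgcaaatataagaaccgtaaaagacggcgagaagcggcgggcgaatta
The Hes5 region holds the core at 82 to 77 bases before the start on the strand of the gene and at 226 to 221 bases on the opposite strand. The Dtx1 and Nrarp regions hold no TGGGAA on either strand. Searched in windows of 250 bases before to 50 bases after each start, the core occurred in 2 of the 9 genes with an entry, Rbpj and Hes5, and in 25.6% of 32851 promoter windows. A match to these letters is a description and was not tested as a binding site.

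The receptors differed between the lines one by one rather than as a group. Notch1, the receptor that directs the T-cell lineage choice, was highest in pro-B(-) cells. By its brighter probe, Notch1 was read as -1.76 and -1.86 on the pro-B(+) arrays, -1.03 and -0.96 on the pro-B(-) arrays, -2.20 and -1.95 on the pro-B(-)/Mock arrays and -1.91 and -2.17 on the pro-B(-)/LMO2 arrays. Both pro-B(-) arrays lay above the other 6, and the 2 transductants overlapped. The level of Notch1 was 1.76-fold lower in the pro-B(+) line than in the pro-B(-) line, a log2 difference of -0.81 (SE 0.12, limma adjusted p = 0.00277). The Lmo2 vector gave a log2 difference in Notch1 of 0.034 (SE 0.12, adjusted p = 0.817), whose sign turned under each of 3 other ways of scaling or background correction.

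The dimmer Notch1 probe ordered the groups differently. Its signal in pro-B(+) cells, -6.14 and -6.78, was not well above background, and it was read as -4.84 and -5.14 in pro-B(-), -4.29 and -4.56 in pro-B(-)/Mock and -4.02 and -4.14 in pro-B(-)/LMO2 cells. No group overlapped its neighbour. By this probe Notch1 was at least 1.68-fold lower in the pro-B(+) line than in the pro-B(-) line (adjusted p = 0.00362). In pro-B(-)/LMO2 cells it was at least 3.15-fold higher than in pro-B(+) cells (adjusted p = 0.000257), where the brighter probe gave a log2 difference of -0.23 (adjusted p = 0.124). In both comparisons the dimmer probe passed the filter on dim probes only through the group where it was high. Its tests could thus hardly come out the other way, and its calls add nothing to the bounds. The transcripts that each probe reads were not examined here.

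Notch2, the receptor that marginal zone B cells require, stood out in cells with the Lmo2 vector. Its brighter probe was read as 1.18 and 1.19 on the pro-B(+) arrays, 1.03 and 1.17 on the pro-B(-) arrays, 1.12 and 1.22 on the pro-B(-)/Mock arrays and 2.21 and 2.18 on the pro-B(-)/LMO2 arrays. Both pro-B(-)/LMO2 arrays lay above all others, and pro-B(-)/Mock cells overlapped both parental lines. The increase over the empty vector was 2.03-fold, a log2 difference of 1.02 (SE 0.059, adjusted p = 4.05e-05). Between the parental lines the log2 difference of Notch2 was 0.082 (adjusted p = 0.297), and it was -0.20 and past the threshold when arrays were scaled by their medians (adjusted p = 0.0227). The dimmer Notch2 probe was read as -3.998 and -4.07 in pro-B(+), -4.24 and -4.40 in pro-B(-), -5.05 and, not well above background, -5.51 in pro-B(-)/Mock and -3.87 and -3.97 in pro-B(-)/LMO2 cells. It likewise rose with the Lmo2 vector over the empty vector, by 1.36 (SE 0.15, adjusted p = 0.000484), and its difference from pro-B(+) cells was 0.11 (adjusted p = 0.521). By this probe pro-B(-)/Mock cells lay below the 3 other groups.

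Notch3, a receptor whose gene is itself raised by Notch signalling in early T cells, had its highest level in pro-B(+) cells. Its single probe was read as -2.72 and -2.68 on the pro-B(+) arrays, -4.30 and -4.13 on the pro-B(-) arrays, -3.18 and -3.27 on the pro-B(-)/Mock arrays and -3.00 and -2.95 on the pro-B(-)/LMO2 arrays. The order was pro-B(+), pro-B(-)/LMO2, pro-B(-)/Mock and pro-B(-), and no neighbours overlapped. Pro-B(+) cells had 2.85-fold more Notch3 signal than pro-B(-) cells, a log2 difference of 1.51 (SE 0.067, adjusted p = 1.99e-05). With the Lmo2 vector Notch3 was higher than with the empty vector by 0.25 (SE 0.066, adjusted p = 0.0194), a call that was lost under 7 of 14 alternatives and turned to -0.012 with normexp background correction. Leaving out pro-B(-)/Mock replicate 2 or either pro-B(-)/LMO2 array was among those 7, with adjusted p up to 0.103.

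Notch4, known mainly from endothelial cells, was lowest in pro-B(+) cells. It was read as -4.32 and -4.39 on the pro-B(+) arrays, -3.55 and -3.42 on the pro-B(-) arrays, -3.40 and -3.29 on the pro-B(-)/Mock arrays and -3.53 and -3.49 on the pro-B(-)/LMO2 arrays. The 2 pro-B(+) arrays lay below the other 6, among which pro-B(-) and pro-B(-)/LMO2 cells overlapped. Notch4 was 1.82-fold lower in the pro-B(+) line than in the pro-B(-) line, a log2 difference of -0.87 (SE 0.061, adjusted p = 0.000134). The Lmo2 vector gave a difference of -0.16 (adjusted p = 0.0579), which passed the threshold under median scaling, quantile normalization and normexp.

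**Figure D1:**
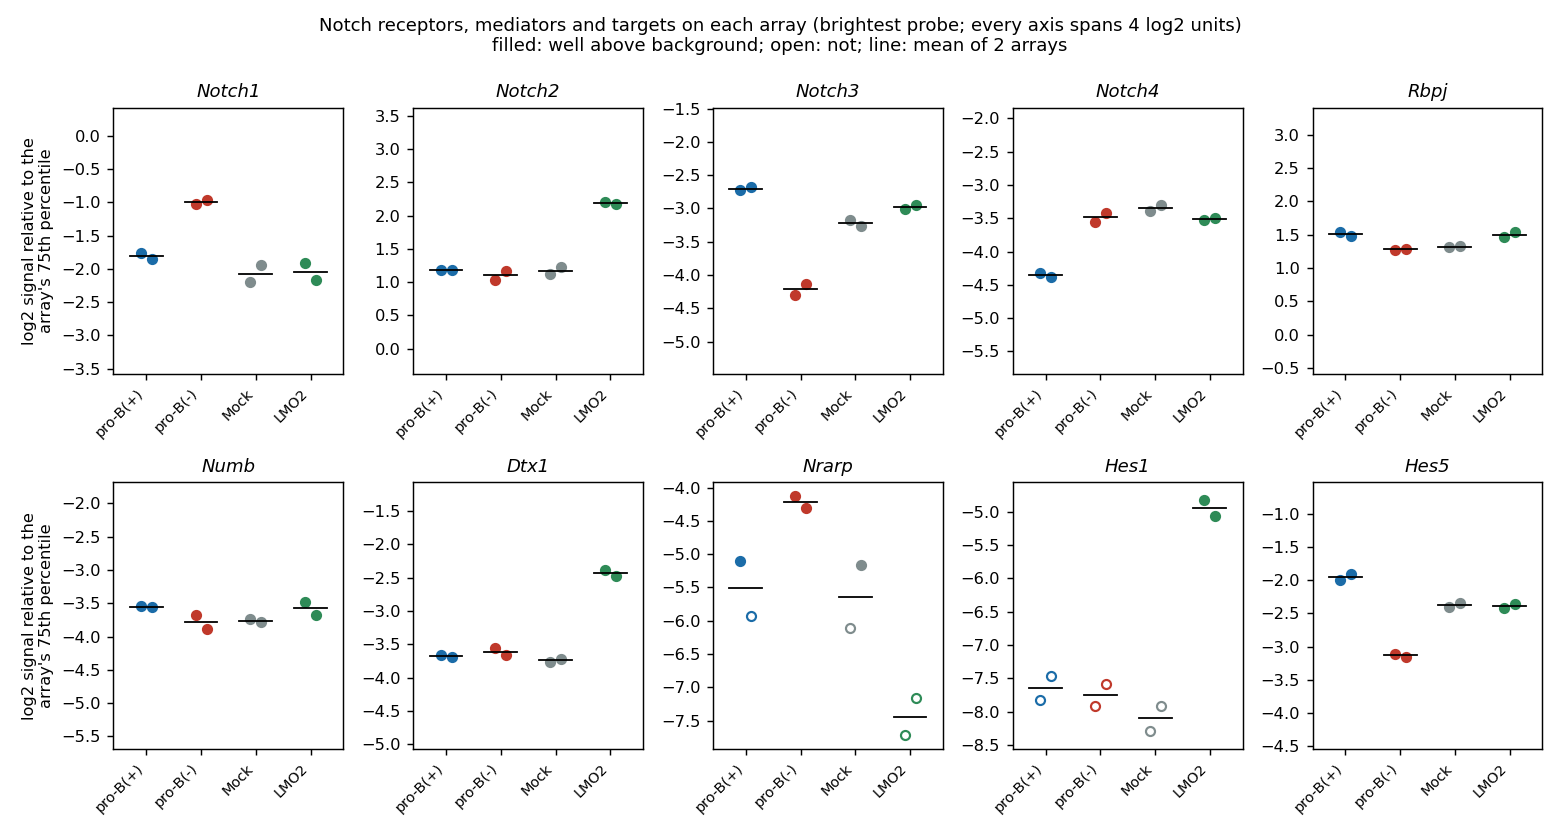
Each panel plots the log2 signal of 1 gene relative to the 75th percentile of the array (brightest probe) on the 8 arrays, by group, with the mean of the 2 arrays as a line and open points for arrays not well above background. Notch3 and Hes5 sit highest in pro-B(+) cells, Notch2, Dtx1 and Hes1 in pro-B(-)/LMO2 cells, and Notch1 and Nrarp in pro-B(-) cells, where Notch1 reaches -1.03 and -0.96. Levels may be compared between groups within a panel, not between panels.

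Of the mediators, Rbpj and Numb moved little. Rbpj, the DNA-binding partner of every Notch receptor, was read by its brighter probe as 1.54 and 1.49 in pro-B(+), 1.28 and 1.28 in pro-B(-), 1.32 and 1.33 in pro-B(-)/Mock and 1.47 and 1.54 in pro-B(-)/LMO2 cells. The pro-B(+) and pro-B(-)/LMO2 arrays overlapped and lay above the other 4. Rbpj was higher in the pro-B(+) line than in the pro-B(-) line by 0.23 (SE 0.039, adjusted p = 0.00443), a difference that became -0.050 with median scaling (adjusted p = 0.402). It was higher with the Lmo2 vector by 0.18 (SE 0.039, adjusted p = 0.00813), a difference that became -0.030 with median scaling (adjusted p = 0.624). These sizes are close to the shift that the scaling itself makes: the median difference over all probes tested moved from -0.043 to -0.33 between the parental lines and from -0.043 to -0.25 between the transductants.

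The dimmer Rbpj probe had another pattern. It was read as -2.01 and -2.02 in pro-B(+), -2.09 and -2.02 in pro-B(-), -2.97 and -2.85 in pro-B(-)/Mock and -2.42 and -2.56 in pro-B(-)/LMO2 cells. Both parental lines thus lay above both transductants, which were on the other slide. By this probe the difference between the parental lines was 0.043 (adjusted p = 0.604), and the Lmo2 vector raised Rbpj over the empty vector by 0.42 (SE 0.063, adjusted p = 0.00185).

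Numb, an endocytic adaptor that restrains Notch receptors, was read as -3.54 and -3.56 in pro-B(+), -3.67 and -3.89 in pro-B(-), -3.74 and -3.79 in pro-B(-)/Mock and -3.48 and -3.68 in pro-B(-)/LMO2 cells. The groups spanned 0.23 between the highest and the lowest mean. No comparison of Numb was called, with log2 differences of 0.23 between the parental lines (SE 0.093, adjusted p = 0.0901) and 0.18 with the Lmo2 vector (SE 0.092, adjusted p = 0.133). The first passed the threshold with the replicate number as a block (adjusted p = 0.042) and without pro-B(-) replicate 1.

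Dtx1, which encodes Deltex1, a ubiquitin ligase that binds the intracellular part of Notch and is itself a Notch target, was raised in cells with the Lmo2 vector. It was read as -3.66 and -3.70 in pro-B(+), -3.56 and -3.66 in pro-B(-), -3.76 and -3.72 in pro-B(-)/Mock and -2.38 and -2.47 in pro-B(-)/LMO2 cells. The 2 pro-B(-)/LMO2 arrays lay above the other 6. The increase over the empty vector was 2.49-fold, a log2 difference of 1.31 (SE 0.053, adjusted p = 1.21e-05), and the call was kept under all 14 alternatives. Between the parental lines the difference was -0.066 (SE 0.053, adjusted p = 0.348), which became -0.35 and passed the threshold with median scaling and -0.29 with quantile normalization.

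**Figure D2:**
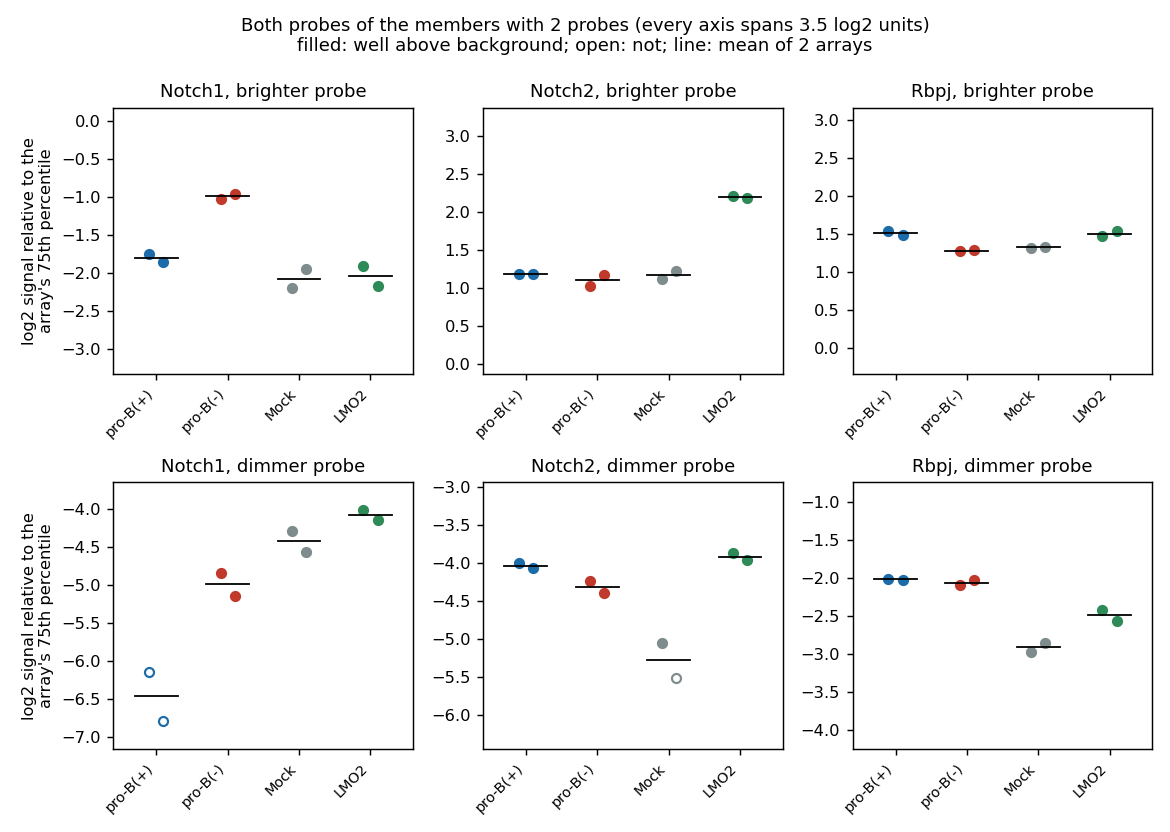
Log2 signal relative to the 75th percentile of the array for the brighter (top) and dimmer (bottom) probe of Notch1, Notch2 and Rbpj on each of the 8 arrays, with the mean of the 2 arrays of a group as a line and open points for arrays not well above background. The brighter Notch1 probe is highest in pro-B(-) cells and the dimmer in pro-B(-)/LMO2 cells, at a mean of -4.08, and the dimmer Rbpj probe is lowest in the 2 transductants.

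The 3 target genes did not move together. Hes5, which encodes a basic helix-loop-helix repressor and carries the RBPJ core in the promoter shown, was read as -2.00 and -1.91 on the pro-B(+) arrays, -3.11 and -3.15 on the pro-B(-) arrays, -2.40 and -2.35 on the pro-B(-)/Mock arrays and -2.43 and -2.36 on the pro-B(-)/LMO2 arrays. It was highest in pro-B(+) and lowest in pro-B(-) cells, with the transductants overlapping in between. Hes5 was 2.25-fold higher in the pro-B(+) line than in the pro-B(-) line, a log2 difference of 1.17 (SE 0.050, adjusted p = 1.69e-05), and the call was kept under all 14 alternatives. The effect of the Lmo2 vector on Hes5 was -0.019 (SE 0.049, adjusted p = 0.759).

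Hes1, the most often used target gene of Notch in T-cell progenitors, was measured above background in pro-B(-)/LMO2 cells and in no other group. It was read as -4.83 and -5.05 there, against -7.82 and -7.47 in pro-B(+), -7.92 and -7.59 in pro-B(-) and -8.29 and -7.91 in pro-B(-)/Mock cells. On those 6 arrays the signal was not well above background, so their order carries no information and the difference between the parental lines was not tested. Hes1 was at least 2.23-fold above the empty vector with Lmo2 (adjusted p = 5.41e-05). It also exceeded the level of pro-B(+) cells, by at least 1.74-fold (adjusted p = 8.11e-05), although those arrays lay on the other slide. Its probe passed the filter on dim probes through the pro-B(-)/LMO2 arrays alone, so a test could come out only in this direction and its calls add nothing to the bounds.

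Unlike Hes1, Nrarp, a Notch-induced ankyrin repeat protein that limits Notch signalling, was not well above background in pro-B(-)/LMO2 cells. It was well above background on both pro-B(-) arrays, at -4.12 and -4.30, on 1 pro-B(+) array at -5.10 and not on the other at -5.93, on 1 pro-B(-)/Mock array at -5.17 and not on the other at -6.11, and on neither pro-B(-)/LMO2 array, at -7.72 and -7.16. Pro-B(-) cells were thus highest and pro-B(-)/LMO2 cells lowest, with pro-B(+) and pro-B(-)/Mock cells overlapping in between. Nrarp was lower in the pro-B(+) line than in the pro-B(-) line by a log2 difference of -1.30 (SE 0.41, adjusted p = 0.0453). Only the pro-B(-) arrays carried the probe past the filter on dim probes, so the test could hardly come out the other way. That call was lost under 5 of 13 alternatives, among them leaving out pro-B(+) replicate 2 or either pro-B(-) array (adjusted p up to 0.205). The probe passed the filter in no group of the Lmo2 comparison, so no test was made there. As a bound, pro-B(-) cells exceeded pro-B(-)/LMO2 cells by at least 3.48-fold. For pro-B(-)/Mock cells, with 1 of 2 arrays measured, the same calculation gave 1.30-fold, which is not a lower limit.

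The question of which of these genes separate a line that can become T cells from one that cannot was put by comparing pro-B(+) with pro-B(-) cells. Of the 9 genes tested, 3 were called higher (Notch3, Hes5 and, except with median scaling, Rbpj) and 3 lower (Notch1, Notch4 and Nrarp) in pro-B(+) cells, and Notch2, Numb and Dtx1 were not called. Nrarp was tested only because it was high in pro-B(-) cells. Over all 13216 genes tested in the same way, 52.8% were called, 25.7% higher and 27.1% lower. The share among the 9 genes is near this background, so the count by itself says little about the pathway. The median log2 difference was 0.082 for the 9 genes and -0.014 for all genes.

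What the Lmo2 vector changed was asked by comparing pro-B(-)/LMO2 with pro-B(-)/Mock cells. Of the 9 genes tested, 5 were called higher (Notch2, Notch3, Rbpj, Dtx1 and Hes1, of which Notch3 and Rbpj lost the call with median scaling), none was called lower, and Notch1, Notch4, Numb and Hes5 were not called. Hes1 was tested only because it was high with the Lmo2 vector, which leaves 4 calls among 8 genes measured on both sides. Over all 12924 genes tested 68.8% were called, 31.1% higher and 37.8% lower. The median log2 difference was 0.18 for the 9 genes and -0.035 for all genes.

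**Figure D3:**
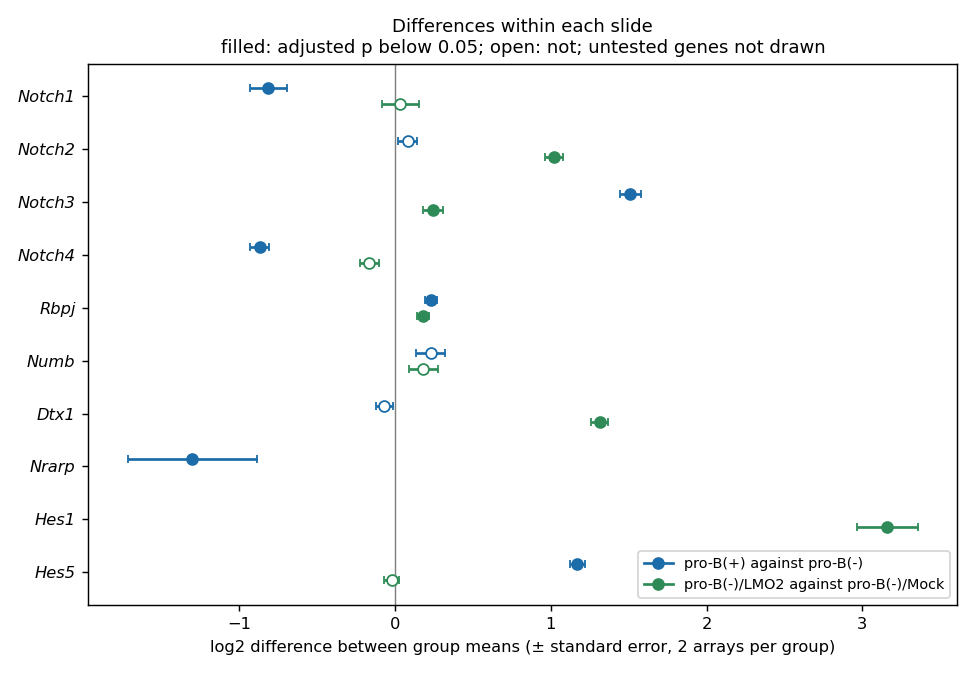
Log2 difference between group means, with its standard error, for each gene by its brightest probe, between the parental lines, pro-B(+) minus pro-B(-), and between the transductants, pro-B(-)/LMO2 minus pro-B(-)/Mock (2 arrays per group, filled where the adjusted p was below 0.05). Notch3 and Hes5 stand apart above 0 in the first comparison, at 1.51 and 1.17, and Nrarp lies farthest below 0, at -1.30. In the second comparison Notch2, Dtx1 and Hes1 stand apart. The Hes1 value rests on a control below background and is a fitted value, for which the bound is 2.23-fold, and the sign of Rbpj turns in both comparisons with median scaling.

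The difference between the 2 effects was tested as an interaction, in which the comparisons share no array. For 7 of the 10 genes the parental difference and the effect of the Lmo2 vector differed (58.7% of all 13730 genes tested, 33.4% positive and 25.3% negative). Notch3 (1.26, SE 0.095, adjusted p = 0.000248) and Hes5 (1.19, SE 0.071, adjusted p = 0.00011) were more positive between the parental lines than between the transductants. The reverse held for Notch1 (-0.85, adjusted p = 0.00875), Notch2 (-0.94, adjusted p = 0.000448), Notch4 (-0.70, adjusted p = 0.00146), Dtx1 (-1.38, adjusted p = 8.73e-05) and Hes1, whose value of -3.05 rests on 3 groups below background. Hes1 passed the filter on dim probes only through the pro-B(-)/LMO2 arrays. Its interaction could thus hardly come out the other way, and its call adds nothing to the bounds. Rbpj (0.054, adjusted p = 0.445), Numb (0.047, adjusted p = 0.787) and Nrarp (0.50, adjusted p = 0.507) were not called. Nrarp was tested only through the pro-B(-) arrays. Each pair of groups lay on its own slide, so a slide effect common to both groups of a pair cancels in these values.

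The empty vector was compared with its parental line as the background of transduction, across the slides. Of 9 genes tested, Notch3 (0.99, SE 0.066, adjusted p = 0.000121) and Hes5 (0.76, SE 0.049, adjusted p = 0.000109) were higher with the empty vector than in the parental line, and Notch1 (-1.08, SE 0.12, adjusted p = 0.000751) and Nrarp (-1.42, SE 0.41, adjusted p = 0.0274) were lower, where 60.8% of all 12895 genes tested were called, 30.9% higher and 29.9% lower. These are 4 of the 6 genes called between the parental lines, with which this comparison shares the pro-B(-) arrays, so the values are given side by side only. For Notch1 the mean of its probes gave -0.26 (adjusted p = 0.148), and Nrarp lost the call without pro-B(-)/Mock replicate 1 or either pro-B(-) array (adjusted p up to 0.119). Here too Nrarp passed the filter on dim probes only through the pro-B(-) arrays, so its test could hardly come out the other way. Vector, culture and slide cannot be told apart here.

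Pro-B(-)/LMO2 cells were set against pro-B(+) cells, likewise across the slides. Notch2 (1.01, SE 0.059, adjusted p = 3.4e-05), Notch4 (0.84, SE 0.062, adjusted p = 7.87e-05), Dtx1 (1.25, SE 0.054, adjusted p = 1.1e-05) and Hes1 (at least 1.74-fold) were higher with the Lmo2 vector than in pro-B(+) cells, and Notch3 (-0.27, SE 0.067, adjusted p = 0.012) and Hes5 (-0.43, SE 0.050, adjusted p = 0.000512) were lower. These were 6 of 9 genes tested, where 78% of all 13553 genes tested were called, 35% higher and 43% lower. Hes1 was again tested only because it was high with the Lmo2 vector. The Notch3 call was lost with median scaling, without pro-B(+) replicate 2 and without pro-B(-)/LMO2 replicate 1 (adjusted p up to 0.0645). Notch1 (-0.23, adjusted p = 0.124), Rbpj (-0.011, adjusted p = 0.806) and Numb (-0.026, adjusted p = 0.81) were not called.

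The rest of the pathway was described with a list of 62 other genes, of which 61 were on the array. Between the parental lines 33 of 56 tested were called, 16 higher and 17 lower in pro-B(+) cells, with a median log2 difference of 0.045, or 58.9% beside 52.8% of all genes. Between the transductants 39 of 53 were called, 23 higher and 16 lower, with a median of 0.064, or 73.6% beside 68.8% of all genes. These shares are near the background, against which the counts of each role are to be read. The medians of all genes in these comparisons were -0.014 and -0.035.

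Ligands, which neighbouring cells present to Notch receptors, were the role with the largest median difference between the parental lines. Of 6 ligands, 4 of the 5 tested were higher in pro-B(+) cells and none lower, with a median of 1.33. Among them Dll1 and Jag1 were well above background only in pro-B(+) cells, so their tests could hardly come out the other way. The median is the fitted value of Jag1 and rests on such a signal in pro-B(-) cells. Dlk1, which encodes a membrane protein related to the ligands, was read as 0.42 and 0.45 in pro-B(+) and -2.66 and -2.70 in pro-B(-) cells, a log2 difference of 3.12 (SE 0.12, adjusted p = 1.01e-05). Dll1, a Delta-like ligand, was well above background only in pro-B(+) cells and at least 1.64-fold higher there than in pro-B(-) cells (adjusted p = 0.000571). With the Lmo2 vector none of the 3 ligands tested was higher, and Jag2 (-0.75, SE 0.074, adjusted p = 0.000304) and Dlk1 (-0.35, SE 0.11, adjusted p = 0.0376) were lower than with the empty vector.

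Endocytic adaptors and ubiquitin ligases, the role of Numb and Dtx1, had the largest median difference of any role between the transductants. Of 10 genes, 8 rose and 1 fell with the Lmo2 vector, with a median of 0.56, against 2 higher and 2 lower between the parental lines. Dtx4, a relative of Dtx1, was read as 0.79 and 0.82 in pro-B(+), -0.58 and -0.49 in pro-B(-), -1.58 and -1.56 in pro-B(-)/Mock and 0.82 and 0.86 in pro-B(-)/LMO2 cells. It rose 5.32-fold with the Lmo2 vector (log2 2.41, SE 0.042, adjusted p = 7.69e-07) and was 2.54-fold higher in the pro-B(+) line than in the pro-B(-) line (log2 1.34, SE 0.042, adjusted p = 5.22e-06). Numbl, the relative of Numb, rose by 0.98 with the Lmo2 vector (SE 0.090, adjusted p = 0.000232). Neurl1a, a ubiquitin ligase of the Neuralized family, was lower in the pro-B(+) line than in the pro-B(-) line by -2.08 (SE 0.069, adjusted p = 6.44e-06).

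Genes that Notch signalling or its downstream factors raise in early T cells held the largest single differences of the list, although not the largest median of a role (0.39 between the parental lines and 0.52 between the transductants). Of 8 such genes, 5 were higher and 2 lower in the pro-B(+) line than in the pro-B(-) line, and 6 were higher and 1 lower with the Lmo2 vector. Tcf7, which encodes TCF1, was read as 1.80 and 1.79 in pro-B(-)/LMO2 and -2.90 and -2.88 in pro-B(+) cells and was not well above background in pro-B(-) or pro-B(-)/Mock cells. It was at least 238-fold above the empty vector with Lmo2 (adjusted p = 1.94e-06) and at least 7.54-fold higher in the pro-B(+) line than in the pro-B(-) line (adjusted p = 2.4e-05). Il2ra, which encodes CD25, was at least 134-fold higher with the Lmo2 vector (adjusted p = 9.77e-06). Tcf7, Il2ra and, above, Dll1 and Jag1 passed the filter on dim probes only through the group where they were high in each of these comparisons. The gene that fell with the Lmo2 vector, chosen here after its values were seen, was Bcl11b, a transcription factor gene of T-lineage commitment. It was read as -2.90 and -3.01 in pro-B(+), -2.36 and -2.04 in pro-B(-), -1.78 and -1.73 in pro-B(-)/Mock and -5.07 and -4.63 in pro-B(-)/LMO2 cells. From the empty-vector to the Lmo2 arrays Bcl11b fell 8.54-fold (-3.09 on the log2 scale, SE 0.17, adjusted p = 3.21e-05), and its dimmer probe was at least 7.61-fold lower. Between the parental lines the 2 lower genes were Bcl11b (-0.76, adjusted p = 0.0133) and Cdkn1a (-0.89, adjusted p = 7.82e-06), a cell cycle inhibitor gene whose 2 probes went opposite ways with the Lmo2 vector (0.46 and -0.32). Ccnd1, which encodes cyclin D1, was 52.7-fold higher in the pro-B(+) line than in the pro-B(-) line (log2 5.72, SE 0.046, adjusted p = 1.78e-07).

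By the brightest probe of each gene, roles between receptor and target moved less. Of 8 receptor processing genes, 2 had higher and 4 had lower levels in pro-B(+) cells, led by Adam17 (0.55, adjusted p = 0.00196), a protease that sheds membrane proteins, and Furin (-0.53, adjusted p = 0.000241), the convertase that matures the receptor. Between the transductants 3 were higher and 3 lower with Lmo2, led by Aph1b (-0.59, adjusted p = 0.00155), a gamma-secretase subunit, and Furin (0.46, adjusted p = 0.000269). Aph1b was also among the lower genes in pro-B(+) cells, but its dimmer probe went the other way. That probe was read as -1.56 and -1.52 in pro-B(+) and -3.42 and -3.58 in pro-B(-) cells. In the transductants it overlapped, at -4.17 and -4.35 with the empty vector and -4.49 and -4.24 with Lmo2. Of 5 glycosyltransferases, which add sugars to the receptor, 2 were higher and 2 lower in each of the comparisons. Lfng, a Fringe that tunes which ligand a receptor prefers, rose by 0.82 with the Lmo2 vector (SE 0.050, adjusted p = 4.98e-05) and Mfng, another Fringe, by 0.26 (adjusted p = 0.00183), while Rfng (-0.33, adjusted p = 0.00199) was lower and Mfng (0.20, adjusted p = 0.00764) higher in pro-B(+) cells.

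Of 8 coactivators 1 was lower and none higher in pro-B(+) cells, namely Maml3 of the Mastermind-like family (-0.65, SE 0.051, adjusted p = 0.000206). With the Lmo2 vector 3 of 7 tested were higher and 2 lower, led by Maml3 (0.63, SE 0.051, adjusted p = 0.000141) and the acetyltransferase gene Kat2b (-0.21, adjusted p = 0.0226). Of 9 corepressors 4 were lower in each comparison, among them in pro-B(+) cells Cir1 (-0.34, adjusted p = 0.000541), and with the Lmo2 vector the histone deacetylase gene Hdac2 (-0.75, SE 0.043, adjusted p = 4.13e-05) and Ctbp2 (-0.52, adjusted p = 0.000169). Of the 7 other HES and HEY genes, only 3 were bright enough to test. Hes6 was lower with the Lmo2 vector (-0.71, SE 0.036, adjusted p = 2.69e-05), and Hes2 (-0.68, adjusted p = 0.0115) and Hes6 (-0.12, adjusted p = 0.0355) were lower in pro-B(+) cells.

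**Figure D4:**
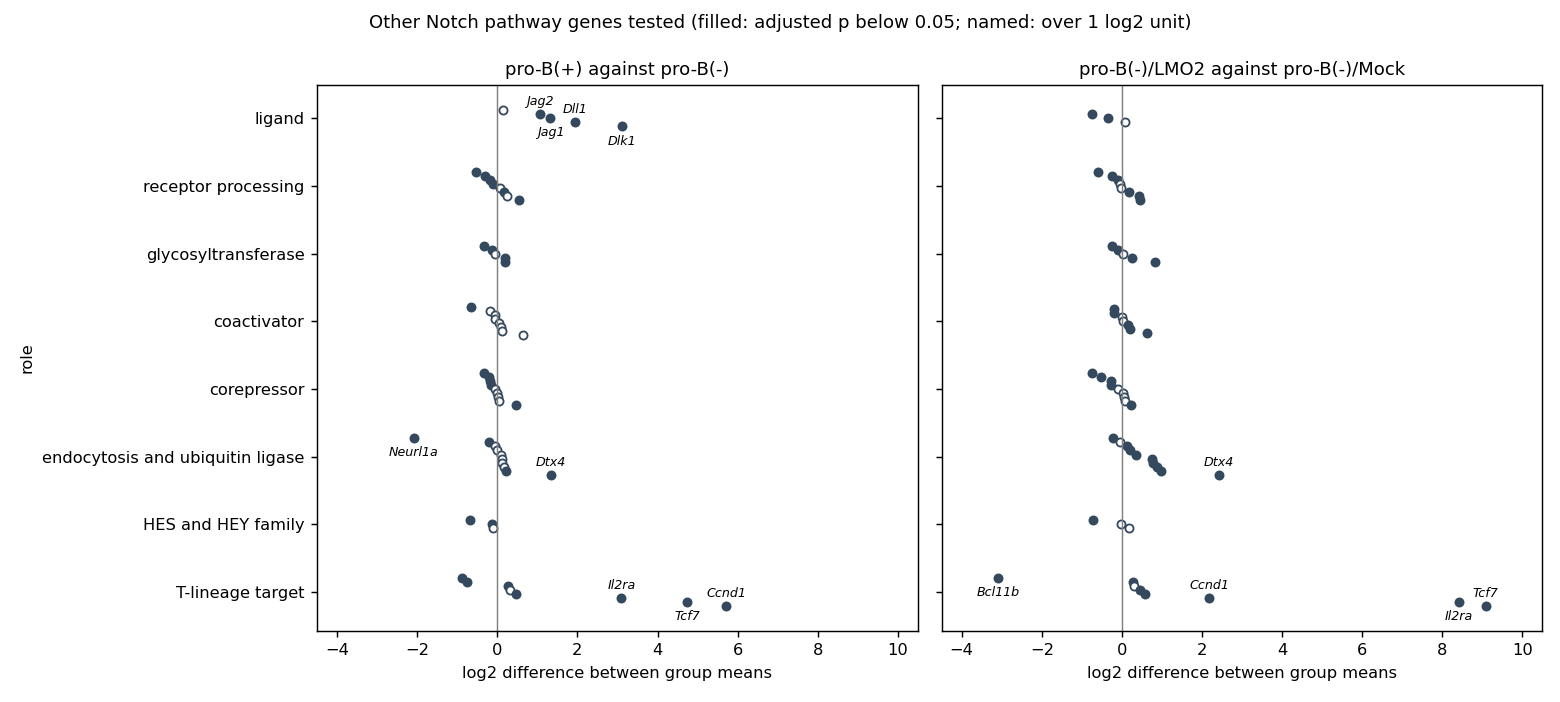
Log2 difference between group means of the other Notch pathway genes tested, by role, in pro-B(+) against pro-B(-) cells (left, 56 genes) and pro-B(-)/LMO2 against pro-B(-)/Mock cells (right, 53 genes), filled where the adjusted p was below 0.05 and named where the size is over 1. All 5 ligands tested lie to the right of 0 on the left panel, where the values of Dll1 and Jag1 rest on a pro-B(-) signal not well above background. Tcf7 and Il2ra lie farthest to the right on the right panel, where their fitted values rest on a control below background.

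Markers of other cells that the cultures could hold moved alongside some of these genes. Summed over 22 stromal genes on the linear scale, relative to the 75th percentile, the signal was 35.0 to 35.5 in pro-B(+), 16.1 to 16.7 in pro-B(-), 34.7 to 35.9 in pro-B(-)/Mock and 43.99 to 45.2 in pro-B(-)/LMO2 cells, so that pro-B(-) cells were lowest, as for Notch3 and Hes5. Between the parental lines 17 of 18 stromal genes tested were higher in pro-B(+) cells and none lower, among them Col1a1 (1.65, adjusted p = 2.17e-06), Col1a2 (1.41), Sparc (1.53) and Pdgfra (1.46). Over all genes tested in this comparison 25.7% were higher and 27.1% lower. Fbn1 passed the filter on dim probes only through pro-B(+). Of the stromal list, Dcn, Lum and Col5a2 were not well above background in any group. The sum over 14 myeloid genes was 58.0 to 58.6 in pro-B(+), 11.97 to 12.7 in pro-B(-), 13.2 to 13.5 in pro-B(-)/Mock and 29.5 to 30.8 in pro-B(-)/LMO2 cells. Of the 5 endothelial genes, Cdh5, Tek and Emcn were not well above background in any group, and the sum was 1.27 to 1.68 in pro-B(+), where Notch4 was lowest, and 1.88 to 2.21 over the other groups. The part of these markers in the Notch3, Hes5, Notch4 or ligand differences was not tested. The sum over 14 T-lineage genes was lowest in pro-B(+) cells, at 39.8 to 41.9, and was 59.4 to 62.7 in pro-B(-), 70.0 to 70.5 in pro-B(-)/Mock and 58.6 to 59.6 in pro-B(-)/LMO2 cells. The sum over 11 pro-B genes was 29.7 to 29.8, 32.2 to 32.4, 33.6 to 34.9 and 71.2 to 71.9 in the same order. Bright genes weigh most in such sums, and counts by gene did not follow the sums in either list. Between the parental lines, 7 of 13 T-lineage genes tested were called higher and 3 lower for pro-B(+), beside 25.7% and 27.1% of all genes. Cd3d, Cd3g, Cd247 and Il2ra were not well above background in pro-B(-) cells and passed the filter on dim probes only through pro-B(+). Their tests could thus hardly come out the other way. The median log2 difference of the 13 T-lineage genes tested, with these included, was 0.26. With Lmo2 against the empty vector, 3 of 10 pro-B genes tested were called higher and 5 lower, with a median of -0.32. Over all genes tested 31.1% were higher and 37.8% lower, with a median of -0.035, so the pro-B counts by themselves say little. In every group 9 to 11 of the 11 pro-B genes passed as well above background on both arrays, whereas of 14 T-lineage genes, 2 of which (Il2ra and Ptcra) are also among the target genes above, the count was 13 in pro-B(+), 8 in pro-B(-), 11 in pro-B(-)/Mock and 13 in pro-B(-)/LMO2 cells.

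The genes whose pattern over the 8 arrays was most like that of Notch1, Notch3 and Hes1 were taken from 11639 named genes well above background on all 8 arrays. With 4 groups of 2 arrays, these correlations mostly describe 4 group means on 2 slides. For Notch1 the closest were Tbx22 (Pearson r = 0.993), Aqp11 (0.992) and Rnu2-10 (0.988), with 43 genes above 0.95. For Notch3 they were Serpinb6a (0.994), Prl2c5 (0.993) and Serpinb6c (0.992), with 89 genes above 0.95. For Hes1, which was below background on 6 of these arrays, they were Tbx6 (0.992), Fxyd5 (0.992) and Gm11127 (0.991), with 236 above 0.95.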

How the data were processed

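Gene expression was measured in 8 samples, 2 in each of 4 groups taken from the sample titles, with the parent line of the transductants inferred from the study. Spot intensity was deposited by the authors as Agilent Feature Extraction wrote it, background subtracted and detrended, with well-above-background, saturation and outlier flags, per the file headers. A log2 table deposited by the authors holds 75th percentile normalized values from GeneSpring, equal to the log2 processed intensity but for a constant in each array, and served as an alternative. Control spots and spots flagged as outliers were left out, spots of a probe were averaged (39378 probes), and log2 intensity minus the 75th percentile of the array was analysed. Of these probes 26544 were named through RefSeq accessions (GRCm38.p6). The array was designed on another build, so no probe coordinates are given. The brightest probe over the arrays stood for a gene, and every probe of the 10 genes is given.

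All arrays entered 1 limma fit (limma 3.58.1, R 4.3.3) with 4 group means and 4 residual degrees of freedom, moderated by eBayes. The same procedure was also run on simulated data. To be tested, a probe had to be well above background on each array of 1 or more of the groups compared. Benjamini-Hochberg adjustment ran over all probes tested and calls were made at 0.05. Where every array of 1 group was not well above background, a fold is a bound: the brighter group's mean is set against a floor, which on each array is the lowest signal that counts as well above background, or the signal of the probe where that is higher. An exact permutation test of 2 against 2 arrays cannot give a p under 0.333 and was not used. The number of arrays limits the precision. The 75th percentile of the intensity was 604 to 949 per array.

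The 10 genes and all gene lists were chosen with earlier results of these data known. Other pathway genes were named by rule, as the 2 with the largest called difference per role in each comparison within a slide, and marker lists were summarised by counts and sums. A gene that this rule named is not reported here. Replicate numbers did not pair the samples: differences between replicates 1 and 2 correlated between groups at -0.027 to 0.052. Alternatives were median scaling, quantile normalization, normexp background correction (offset 50, on the median spot signal), the deposited log2 table, no filter or a stricter filter on dim probes, only the arrays compared, an intensity trend, the mean of a gene's probes, a replicate block and leaving out each array. Python 3.11.15 and pandas 2.3.3 summarised the tables.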

Additional observations from a re-analysis of the deposited data

How the results depend on the processing

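The number of the 10 genes called stayed within 5 to 7 between the parental lines, 4 to 6 with the Lmo2 vector, 3 to 5 for pro-B(-)/Mock against pro-B(-), 5 to 8 for pro-B(-)/LMO2 against pro-B(+) and 6 to 7 for the interaction. Of 28 calls, 21 were kept under every alternative run, and 7 were lost under at least 1: Rbpj between the parental lines and with the Lmo2 vector, Notch3 with the Lmo2 vector and against pro-B(+), Nrarp between the parental lines and with the empty vector, and Notch1 with the empty vector. Other differences changed sign. Under median scaling, between the parental lines Notch2 was -0.20, Rbpj -0.050 and Numb -0.055, with the Lmo2 vector Notch1 was -0.18, Rbpj -0.030 and Numb -0.027, against pro-B(+) Rbpj was 0.082 and Numb 0.067, and in the interaction Rbpj was -0.020 and Numb -0.028. Under quantile normalization, with the Lmo2 vector Notch1 was -0.071 and Numb -0.0080, with the empty vector Numb was -0.0061, and against pro-B(+) Rbpj was 0.0062. Under normexp, Numb was -0.022 between the parental lines, with the Lmo2 vector Notch1 was -0.074, Notch3 -0.012 and Numb -0.0051, against pro-B(+) Rbpj was 0.034 and Numb 0.027, and in the interaction Rbpj was -0.013, Numb -0.017 and Nrarp -0.15. With the mean of a gene's probes, Notch2 was -0.45 and Rbpj -0.40 with the empty vector, Notch1 was 1.07 against pro-B(+), and Rbpj was -0.16 in the interaction. Leaving out 1 array gave ranges across 0 for Notch1 with the Lmo2 vector (-0.098 to 0.17), Hes5 with the Lmo2 vector (-0.054 to 0.016), Numb with the empty vector (-0.087 to 0.13), Notch2 with the empty vector (-0.0016 to 0.14), Rbpj against pro-B(+) (-0.046 to 0.023), Numb against pro-B(+) (-0.12 to 0.071) and Numb in the interaction (-0.061 to 0.15). The cause of each change was not tested.

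Normexp, which adds an offset and so compresses dim signals, moved called values by over 1.5 times with the call kept: Notch3 to 0.69, Hes5 to 0.58, Notch4 to -0.46 and Nrarp to -0.46 between the parental lines, Dtx1 to 0.75 and Hes1 to 0.43 with the Lmo2 vector, Notch3 to 0.51, Hes5 to 0.48 and Nrarp to -0.31 with the empty vector, Notch4 to 0.33, Dtx1 to 0.77, Hes1 to 0.64 and Hes5 to -0.22 against pro-B(+), and Notch3 to 0.70, Notch4 to -0.28, Dtx1 to -0.87, Hes1 to -0.37 and Hes5 to 0.71 in the interaction. The mean of a gene's probes did so for Rbpj, to 0.14 between the parental lines and 0.30 with the Lmo2 vector, for Notch2, to 0.56 against pro-B(+), and for Notch1, to -1.33 in the interaction. With the replicate number as a block, 6 genes were called between the parental lines, as without it, with Numb gained (0.23, adjusted p = 0.042) and Nrarp lost (-1.30, adjusted p = 0.0714), and no other call changed. The signal over background limits Hes1 and Nrarp, which have only bounds in some groups.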
